A study of Mus musculus with 4 samples.

Results

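Oxidative phosphorylation is carried out by 5 multi-subunit complexes of the inner mitochondrial membrane. Complexes I and II take electrons from NADH and succinate and pass them to ubiquinone, complex III passes them on to cytochrome c, and complex IV passes them to oxygen. Complexes I, III and IV pump protons, and complex V, the ATP synthase, lets the protons back and makes ATP. Most subunits are encoded in the nucleus, and neurons depend heavily on this pathway for the ATP that drives their ion pumps.

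The genes described here are those whose symbol begins with Nduf (complex I), Uqcr (complex III), Cox4 to Cox8 (complex IV) or Atp5 (complex V), together with Sdha to Sdhd (complex II) and Cyc1 (complex III). They were taken from the platform's probe annotation, and only probe sets with exactly 1 gene symbol were kept. This gave 100 probe sets for 72 genes, out of 12422 probe sets and 8251 named genes in all. Complex I had 38 probe sets, complex II 4, complex III 9, complex IV 23 and complex V 22. Another 4 probe sets read Ndufaf1 and Ndufaf4, which help to assemble complex I and are not subunits of it. A further 10 probe sets, such as those of Ndufs5, Ndufs6 and Cox7c, were left out because the annotation gives them several symbols.

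The measurements come from 4 samples of mouse hippocampus, each hybridised as total RNA to 1 Affymetrix Murine Genome array. The labels place all samples in a single group and give no strain, sex, age, genotype or treatment, so the data allow no comparison between conditions. The question they address is how far replicate hippocampus samples differed in these transcripts. The labels are silent on whether 4 different animals were used, so that p-values measure only how these samples vary, which can include technical variation. Sample numbers 1 to 4 are names and carry no order. Signals are given in quantile normalized array units. The signal of 1 probe set cannot be set against that of another, because probe sets differ in how strongly they bind.

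The labelled tissue was checked against its markers. All 9 pan-neuronal genes and 6 of 7 hippocampal principal cell genes had a signal high enough for analysis, that is, a mean above the median of all probe sets, while 0 of 6 skeletal and heart muscle genes did. Prox1, a granule cell factor, was the hippocampal gene below that limit. Sample 4 stood somewhat apart on the whole array. It had the highest ratio of 3' to 5' signal for Actb (1.84, 1.64, 1.51 and 2.03 in samples 1 to 4) and for Gapdh (0.887, 0.864, 0.981 and 1.15), a ratio that rises when RNA or its copy is less complete. Over all 6210 analysed probe sets, 30.7% were lowest and 31.1% highest in sample 4.

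Of the 100 probe sets, 72 were analysed, covering 63 genes. The other 28 had means below the limit, and in 9 of these every sample still lay above the floor of 27.7 units, the 25th percentile of all normalized values, below which signals were set to the floor. In bulk tissue, fewer cells of a type and less RNA per cell cannot be told apart, which holds for every value that follows.

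The transcripts of the respiratory chain and ATP synthase varied little, set against a background that is not matched for signal. From lowest to highest sample, the median probe set of the 72 spanned 0.39 log2 units (1.31-fold), and the median of all analysed probe sets spanned 0.53 (1.45-fold). A span under 1.5-fold was found for 54 of 72 (75%), against 55.8% of all. The samples spanned 2-fold or more on 4 of 72 (5.56%), against 15.2% of all. These 4 probe sets read Atp5mpl, Ndufa3, Cox4i1 and Cox6a2. They numbered 2 without sample 1 and 1, that of Atp5mpl, without sample 4. The share of all probe sets in those settings is not given here.

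Spread falls with signal on these arrays, and the genes of this pathway gave strong signals. The median of the probe set means was 1298 units for the 72 and 308 units for all analysed probe sets. Among probe sets with a mean of at least 1000 units, a division chosen after the data had been seen, the median range was 0.32 log2 units for 41 members and 0.35 for all 871. Below 1000 units it was 0.43 for 31 members and 0.57 for all 5339. At 1000 units or more, 82.9% of members and 79% of all spanned under 1.5-fold, and 2.44% and 4.94% reached 2-fold. Below 1000 units, 64.5% of members and 52% of all spanned under 1.5-fold, and 9.68% and 16.9% reached 2-fold. For strong probe sets the shares under 1.5-fold were thus close. Relative to the trend of the SD with signal, the median SD was 0.822 times the trend for the members and 0.941 times for all, and 42 of 72 (58.3%) lay below the trend, against 54.3% of all.

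No member had a variance above that trend once p-values were adjusted over all 6210 probe sets by Benjamini-Hochberg (0 of 72 against 0% of all, one-sided F test of limma). The smallest adjusted p among the members was 0.531 (limma). Xist, an RNA outside the pathway with a 23.8-fold range, did not pass either (adjusted p 0.405, limma). The test thus misses wide differences here, and a count of 0 does not show that the members are stable. An unadjusted p under 0.05 was found for 2 of 72 members (2.78%), those of Atp5mpl and Ndufa7, against 5.62% of all. Without sample 1 that number was 5 of 72, and the share of all probe sets in that setting is not given here. The values of single genes are therefore given as measured, and no gene is called variable.

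**Figure D1:**
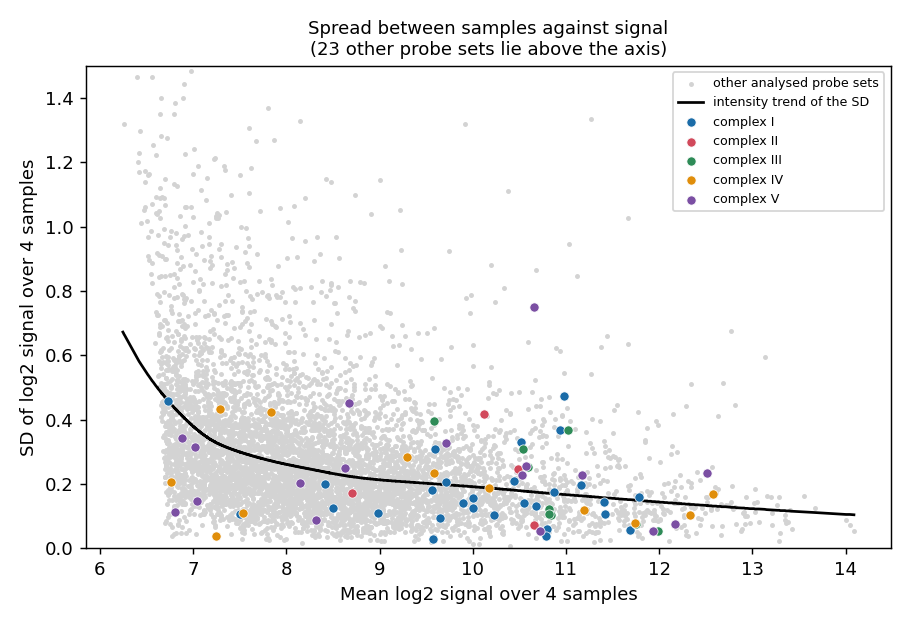
SD of the log2 signal over 4 samples (vertical axis, log2 units) against the mean log2 signal (horizontal axis) for 6210 analysed probe sets, with the subunits coloured by complex, all others in grey (the 2 assembly factors included) and the intensity trend as a black line. Of the 72 members, 42 lie below the line, and 23 other probe sets lie above the upper end of the axis at 1.5.

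The members differed less between any 2 samples than probe sets at large. This comparison is not matched for signal, and the members gave the stronger signals. Their median absolute log2 difference was smallest between samples 1 and 3, at 0.13, and largest between samples 2 and 4, at 0.22, where all analysed probe sets gave 0.21 and 0.28. Between samples 1 and 4 the members gave 0.20 and all probe sets 0.30. At most 2 of the 72 members differed at least 2-fold between any pair of samples, against 3.3% to 7.44% of all analysed probe sets. Between samples 1 and 2 the number was 2 of 72, against 3.86% of all.

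**Figure D2:**
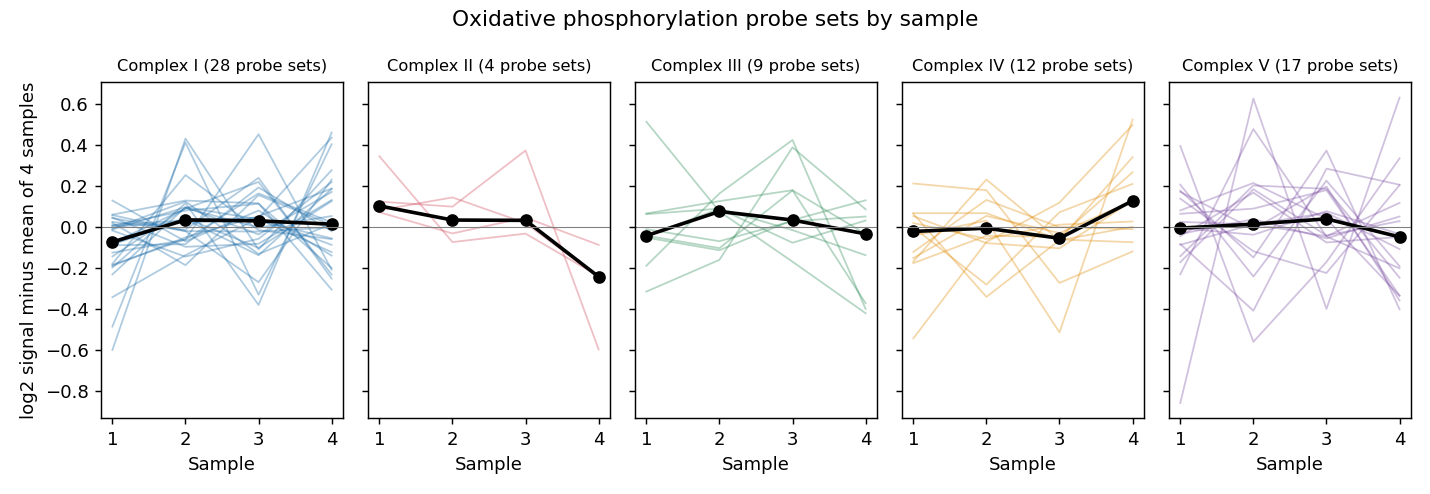
Log2 signal minus the mean of the 4 samples (vertical axis) in samples 1 to 4 (horizontal axis) for the analysed probe sets of each complex. Thin lines join the values of 1 probe set, black points are the median of the complex, and the sample numbers have no order. The median of complex II lies below the others in sample 4, and most lines stay within a narrow band around 0.

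Complex I, the NADH:ubiquinone oxidoreductase, had 28 analysed probe sets for 25 genes. Their median range was 0.33 log2 units (1.26-fold), and 23 of 28 spanned less than 1.5-fold (55.8% of all). Of all analysed probe sets with a mean of at least 1000 units, 79% did so. The median log2 deviation of a sample from the mean of the other 3 was -0.10, 0.05, 0.04 and 0.02 in samples 1 to 4, and over all analysed probe sets it was 0.01, 0.01, 0.01 and 0.02. Sample 1 was lower than the mean of the other 3 samples on 18 of 28 (48.6% of all).

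Of the core subunits of complex I, 4 genes were analysed. Ndufv1, which holds the NADH binding site and the flavin, had signals of 3118, 3397, 3369 and 3331 units across samples 1 to 4 (mean 3304 ± 127, SD, n = 4). Ndufs1, an iron-sulfur subunit, gave 1122, 978, 1085 and 932 units, a 1.20-fold span. Ndufs3, a core subunit of the arm that reaches into the matrix, gave 1765, 1789, 1799.98 and 1695 units, a span of 1.06-fold. No sample stood apart for Ndufv1 or Ndufs3, and for Ndufs1 samples 2 and 4 were lower than samples 1 and 3. The iron-sulfur subunit Ndufv2 was read by 2 analysed probe sets. The stronger gave 1505, 1583, 1620.1 and 1304 units and was lowest in sample 4. The weaker gave 180, 197, 165 and 183 units and was lowest in sample 3.

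Among the accessory subunits, which surround the core, Ndufa7 had the lowest variance p in complex I. Its signals were 1443, 2685, 1607 and 2670.4 units across samples 1 to 4 (mean 2102 ± 669, SD, n = 4). Samples 2 and 4 were alike and lay 1.86-fold above the lowest sample at most, and samples 1 and 3 were close to each other. Its unadjusted variance p was 0.0226, with an adjusted p of 0.756 (limma). Ndufa3, another accessory subunit, was read by 2 probe sets. The stronger gave 1707, 2121, 1505 and 2692 units, and the weaker gave 70.2, 143, 98.6 and 129 units, a 2.04-fold range near the lower limit of analysis. Both were higher in samples 2 and 4 than in samples 1 and 3, but the highest sample was 4 for one and 2 for the other. Without sample 1 the range of the weaker probe set fell from 1.03 to 0.54 log2 units.

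Ndufb9 and Ndufb3, accessory subunits of the membrane arm, had the next wide ranges. Ndufb9 gave 1159, 1335, 1514 and 1986 units, highest in sample 4. Ndufb3 gave 679, 740.4, 1055 and 668 units, so that sample 3 lay above the other samples, which were close together. At the other end of the complex stood Ndufa2, with 788, 754, 753 and 763 units (764 ± 16.2, SD, n = 4), a 1.05-fold span and, with quantile normalization, the smallest range of the analysed members. Its range of 0.065 log2 units became 0.171 with median scaling and 0.02 without sample 1, and Cox6b1 was narrower with median scaling (0.124), with the deposited values (0.028 against 0.088) and without sample 2 (0.015 against 0.067). Ndufb7 (1.10-fold), Ndufa13 (1.16-fold), Ndufb10 (1.18-fold) and Ndufv3 (1.17-fold) were also narrow. Both analysed probe sets of Ndufb2 were highest in sample 4 and lowest in sample 3, with 2610.0, 2822, 2551 and 2987 units for the one and 2555, 2781, 2464 and 3082 units for the other.

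The remaining accessory subunits lay in between. Ndufa8 gave 874, 916, 908 and 678 units, with sample 4 below a tight set of the other samples. Ndufa9 gave 1445, 1369, 1152 and 1629 units, Ndufa5 gave 1601, 2008, 1832 and 2114 units, and Ndufb5 gave 3094, 3407, 3658 and 4015 units, each highest in sample 4. Ndufb6 (1.37-fold), Ndufa6 (1.41-fold) and Ndufc1 (1.35-fold) were highest in samples 3, 3 and 2. Ndufb8, Ndufa10 and Ndufab1, the acyl carrier protein of mitochondria, spanned 1.22-fold, 1.22-fold and 1.27-fold, and all were highest in sample 3.

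Some complex I genes gave too little signal for analysis. Ndufs4, a subunit whose loss causes encephalopathy in mice, gave 58.5, 89.1, 69.95 and 96.0 units. Ndufa12 (at most 33.0 units) and Ndufc2 (24.4 to 54.1 units) lay around the floor. Signals this weak may be background, and the order of the samples is not read for these genes. The assembly factor Ndufaf1 gave 207, 255, 215 and 263 units. Ndufaf4 gave 80.8, 107, 160.1 and 103 units, a 1.98-fold range with sample 3 highest.

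Complex II, succinate dehydrogenase, links the citric acid cycle to the respiratory chain and is the only complex here with every subunit encoded in the nucleus. All 4 subunits were analysed, and all 4 were lowest in sample 4 (30.7% of all analysed probe sets were lowest there). Their median log2 deviation in sample 4 was -0.32, against 0.02 for all probe sets, and in samples 1 to 3 it was 0.14, 0.05 and 0.04. With median scaling 2 of 4 were lowest in sample 4 (24.1% of all) and 0 highest (40% of all). With the deposited values 3 of 4 were lowest there (30.5% of all) and 0 highest (32.1% of all).

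Sdhd, which anchors the complex in the membrane, showed the widest gap. Its signals were 1213, 1192, 1441 and 736 units across samples 1 to 4 (mean 1145 ± 295, SD, n = 4), a 1.96-fold range with sample 4 well below the others. Its unadjusted variance p was 0.0593 and its adjusted p 0.898 (limma), and without sample 4 its range fell from 0.97 to 0.28 log2 units. The other membrane anchor, Sdhc, gave 1826, 1367, 1406 and 1218 units, and here sample 1 stood above the rest. The flavoprotein Sdha gave 442, 461, 423 and 352 units. The iron-sulfur subunit Sdhb hardly differed, with 1695, 1578, 1664.5 and 1518 units (1614 ± 80.7, SD, n = 4).

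Other features of sample 4 are given beside these values. The summed signal of the 9 pan-neuronal marker genes was 25288, 21746, 23022 and 19214 units in samples 1 to 4, lowest in sample 4, with none of the genes at 0. The summed signal of the 7 hippocampal principal cell genes was 8344, 8109, 8019 and 6895 units, also lowest there. A sum leans on its strongest probe sets, here Snap25 and Cck. Singly, Nefl and Dsp were lowest in sample 3 and Calb1 in sample 2, and Neurod2 was highest in sample 4 (909 units). The other genes of both lists were lowest in sample 4. The interneuron sum was 7284, 8731, 7214 and 7920 units, not lowest in sample 4, and the microglia sum was lowest there (2050 units). Of the microglia genes, C1qa and Cx3cr1 were lowest in sample 4, C1qb, Csf1r and Aif1 in sample 1 and C1qc in sample 3. The 3' to 5' ratios of Actb and Gapdh were highest in sample 4. The part of neuronal content or RNA quality in the complex II values was not tested.

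**Figure D3:**
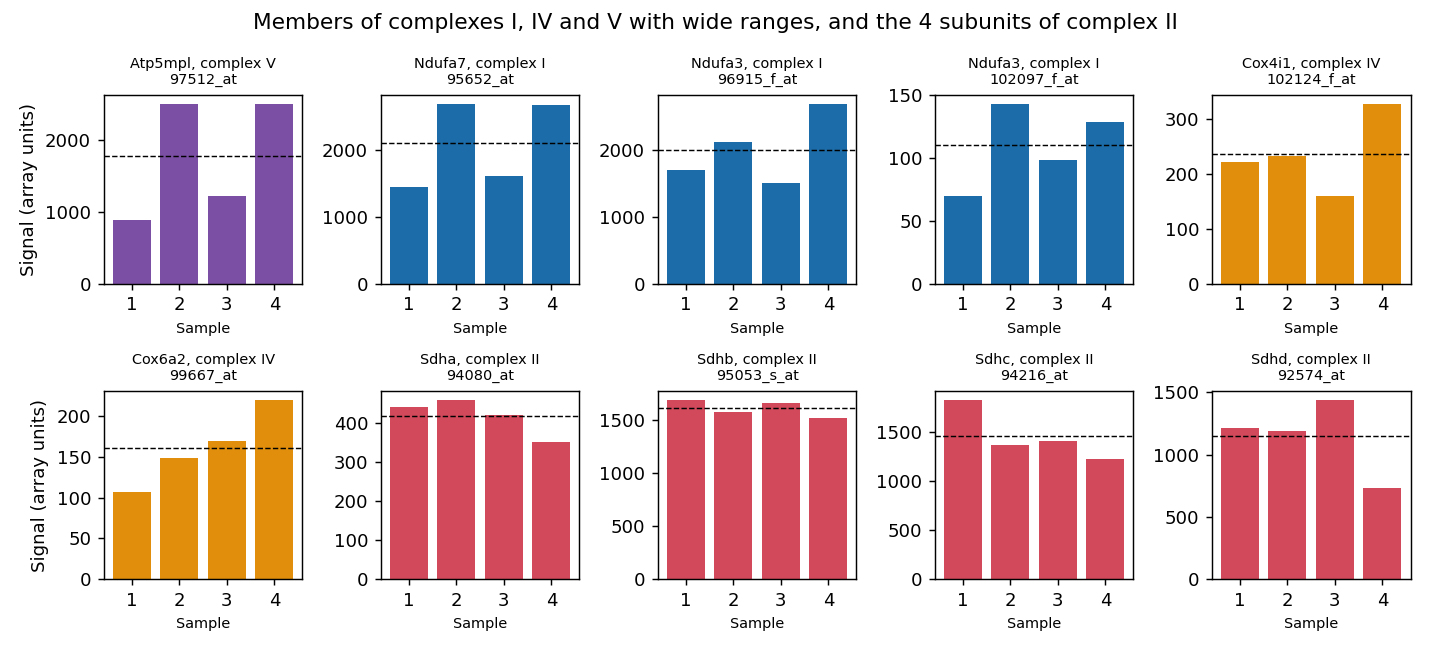
Signal in array units (vertical axes, from 0, each on its own scale) in samples 1 to 4 for 6 probe sets of complexes I, IV and V with wide ranges and for the 4 subunits of complex II. Dashed lines mark the mean of the 4 samples. Atp5mpl and Ndufa7 are high in samples 2 and 4, and all 4 complex II subunits are lowest in sample 4 with quantile normalization as drawn, against 2 of 4 with median scaling and 3 of 4 with the deposited values.

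Complex III, which hands electrons from ubiquinol to cytochrome c, had 9 probe sets, all analysed, with a median range of 0.28 log2 units (1.22-fold). Its median deviations were -0.06, 0.10, 0.05 and -0.05 in samples 1 to 4. Cyc1, the heme-bearing cytochrome c1, was read by 2 probe sets that did not run together. One gave 4042, 3882, 4154 and 4219 units (4074 ± 148, SD, n = 4) and had a range of 0.12 log2 units, which was 0.308 with median scaling. The other gave 1824, 2328, 2789 and 1577 units, with sample 3 highest and sample 4 lowest, a 1.77-fold range.

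Uqcrc1 and Uqcrc2, which face the matrix, carry no electrons and are counted here with the accessory subunits, were both highest in sample 3. Uqcrc1 gave 1750.5, 1678, 2039.9 and 1761 units, and Uqcrc2 gave 1197, 1333, 1948 and 1580.4 units. Sample 3 stood above the other samples for both genes, by a larger margin for Uqcrc2. Uqcrb, a small accessory subunit, had the widest range in the complex. It gave 1096, 809, 683 and 574 units (791 ± 225, SD, n = 4), with sample 1 the highest, and its adjusted variance p was 0.933 (limma). Without sample 1 its range fell from 0.93 to 0.49 log2 units. Uqcr11 gave 1618, 1687, 1750.5 and 1195 units, lowest in sample 4. Uqcrh, the hinge protein, Uqcrq and Uqcr10 spanned 1.18-fold, 1.12-fold and 1.17-fold.

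Complex IV, cytochrome c oxidase, reduces oxygen to water. Its catalytic subunits are made from the mitochondrial genome, for which no gene of the list examined was named on the array, so all complex IV genes here encode the smaller nuclear subunits. Of 23 probe sets, 12 were analysed, with a median range of 0.42 log2 units. Of these, 8 of 12 were highest in sample 4 (31.1% of all), where the median log2 deviation was 0.17. The 8 include probe sets of Cox8b and Cox8c, whose other probe sets gave a signal around or below the floor. They also include both probe sets of Cox4i1, and that of Cox6b1, with 154.6 units in sample 4 and 153.8 in sample 1. In sample 4 the 3' to 5' ratios of Actb and Gapdh were at their highest too. The summed signal of pan-neuronal genes was lowest there (19214 units) and that of oligodendrocyte genes highest (10107 units). Within those lists, Nefl was not lowest in sample 4 (527 units), and Mag was lowest there (403 units). Of the oligodendrocyte genes, Mbp, Mobp and Mal were highest in sample 4, Mag and Mog in sample 2 and Cnp, around the floor, in sample 3. The part of these features in the complex IV values was not tested. The number highest in sample 4 was 9 of 12 with median scaling (40% of all) and 7 with the deposited values (32.1%). With no signal filter it was 9 of 23 (30.7% of all), and the median deviation of complex IV in sample 4 was 0. Without the filter 6 of 23 were lowest in sample 4 (26.6% of all), and with it 1 of 12 (30.7% of all).

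Several complex IV subunits exist as a widely expressed form and as a form typical of heart and skeletal muscle or of testis, and both forms were on the array for a number of them. Cox6a1, the widely expressed form of subunit VIa, gave 5454, 7191, 5857 and 6130.4 units (6158 ± 742, SD, n = 4), highest in sample 2. Its muscle form Cox6a2 gave 107, 148, 169 and 219.7 units, a 2.06-fold range with sample 4 highest and sample 1 lowest. The muscle marker list gave summed signals of 442, 362, 414 and 386 units for 6 genes in samples 1 to 4, with none at 0, and 0 of the 6 were analysed. Among them Ckm and Tnnt2 were highest in sample 4, Acta1 and Myl1 were highest in sample 3 and lowest in sample 4, and Myh7 and Myh6 were highest in samples 1 and 2. The part of muscle RNA in the Cox6a2 signal was not tested. The range of Cox6a2 fell from 1.04 to 0.57 log2 units without sample 1.

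For subunit VIIa, the widely expressed form Cox7a2 gave 3590.1, 3590.1, 3284 and 3255 units (3430 ± 186, SD, n = 4), with samples 1 and 2 a little above samples 3 and 4. Its muscle form Cox7a1 gave 50.5, 40.3, 11.5 and 27.1 units, around the floor. Cox7a2l, a related protein that joins complexes III and IV into supercomplexes, gave 887, 867, 634 and 705 units, again higher in samples 1 and 2. For subunit VIIb, Cox7b gave 1025, 1124, 1119 and 1393 units.

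For subunit VIII, the widely expressed Cox8a gave only 14.4, 42.9, 36.8 and 13.7 units. This lies around the floor. The muscle form Cox8b was read by a probe set with 192, 175, 172 and 202 units and by another around the floor, at 24.2 to 50.1 units. The testis form Cox8c gave 657, 496, 600.5 and 795 units with one probe set and 5.62 to 18.2 units with the other. For these genes the 2 probe sets did not bear each other out, and the level of neither form is settled. For subunit VIb, Cox6b1 gave 154, 146, 153 and 155 units, a span of 1.06-fold, and the 3 probe sets of its testis form Cox6b2 lay between 4.04 and 94.6 units.

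Cox4i1, the widely expressed form of subunit IV, was read by 2 analysed probe sets, both of modest signal. One gave 221, 233, 160 and 327 units, a 2.05-fold range with sample 4 highest and sample 3 lowest. The other gave 108, 89.2, 114 and 125 units and was also highest in sample 4. The range of the first was 0.56 log2 units without sample 3 and 0.54 without sample 4. Cox5b gave 2114, 2438, 2302 and 2564 units, and Cox6c gave 4730.2, 5638, 5144 and 5109 units, neither with a sample far from the rest. Cox5a stayed between 5.83 and 65.3 units on both of its probe sets.

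Complex V, the ATP synthase, consists of a catalytic F1 head and a membrane part, Fo, whose ring turns as protons pass. Its 17 analysed probe sets had a median range of 0.47 log2 units (1.38-fold) and median deviations of -0.01, 0.02, 0.05 and -0.06 in samples 1 to 4. In the head, the alpha subunit Atp5a1 gave 4691, 4651, 4838 and 4279.8 units (4615 ± 237, SD, n = 4). The gamma subunit Atp5c1, the rotating shaft, was lowest in sample 4 on both of its probe sets. One gave 1717, 1514, 1748 and 1190.3 units, and the other 2406, 2449, 2606 and 1826 units. The epsilon subunit Atp5e gave 718, 1173, 816 and 733 units, with sample 2 above a close set of the others.

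The delta subunit Atp5d was read by 4 analysed probe sets, and each had a different highest sample. In samples 1 to 4 the first gave 458, 336, 464 and 347 units. The second gave 313, 262, 243 and 327 units. The third gave 538, 278, 364 and 516 units, and the weakest gave 108, 126, 106 and 108 units. The weakest had sample 2 highest, and that sample was the lowest or next to lowest on the others. No order of the samples is read for Atp5d.

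In the membrane part, the c subunit that forms the rotating ring is made from several genes. Atp5g1 gave 117, 149, 128 and 134 units, and Atp5g2 gave 300.0, 322, 309 and 346 units, both with little spread. In the stalk, the subunit that confers oligomycin sensitivity, Atp5o, gave 1337, 1698, 1678 and 1244 units, higher in samples 2 and 3. The b subunit Atp5pb gave 122, 97.7, 158 and 149.5 units. Atp5j, coupling factor F6, was narrow with 1679, 1643, 1779 and 1646 units (1687 ± 63.5, SD, n = 4). The small membrane subunit Atp5l was also narrow, with 3818, 4015, 3763 and 4051 units, a span of 1.08-fold. Atp5k gave 133, 106, 152 and 89.2 units, and Atp5j2 (32.9 to 62.5 units) was too weak for analysis.

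Atp5mpl and Atp5md encode small proteins that copurify with ATP synthase. Atp5mpl had the widest range of the 72 analysed members with quantile normalization. Its signals were 893, 2495, 1226 and 2503 units across samples 1 to 4 (mean 1779 ± 842, SD, n = 4), a 2.80-fold range. Samples 2 and 4 were nearly equal, and samples 1 and 3 lay well below them. The unadjusted variance p was 0.00376 and the adjusted p 0.531 (limma), and the range stayed between 1.03 and 1.55 log2 units under the alternatives tried. Atp5md gave 6205, 6805, 6030.0 and 4651 units, with sample 4 lowest.

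Atp5mpl and Ndufa7 were both higher in samples 2 and 4 than in samples 1 and 3, with sample 4 slightly the highest for Atp5mpl and sample 2 for Ndufa7. Some genes outside the pathway were also divided between samples 2 and 4 and samples 1 and 3. Glyoxalase 1 (Glo1) gave 1675, 872, 1438 and 838 units, in the opposite sense. Kcnj9 (694, 266, 601 and 170 units), Alad and Gabra2 were also lower in samples 2 and 4. Erdr1 and Gas5 were higher there. Slc32a1 of the interneuron list gave 376, 1074, 272 and 1139 units, in the sense of Atp5mpl, and Gad1 of that list was lower in samples 2 and 4. The oligodendrocyte marker list had summed signals of 7129, 9703, 7029 and 10107 units for 6 genes, with none at 0 and Cnp around the floor. Mbp, Mobp, Mal and Mog of that list were each higher in samples 2 and 4. Mag was not divided so, with 528, 818, 425 and 403 units, lowest in sample 4. Whether these features bear on Atp5mpl or Ndufa7 was not tested.

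Where several probe sets read a gene, they agreed only in part. Of 72 genes, 21 had several probe sets, and 7 had at least 2 that were analysed. The highest sample was the same for Atp5c1, Cox4i1 and Ndufb2 and differed for Atp5d, Cyc1, Ndufa3 and Ndufv2. Probe set names with a letter before the ending mark sets that may bind related transcripts or were designed under relaxed rules. The 23 analysed members with such a letter had a median range of 0.43 log2 units, and the 49 without one had 0.36.

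**Figure D4:**
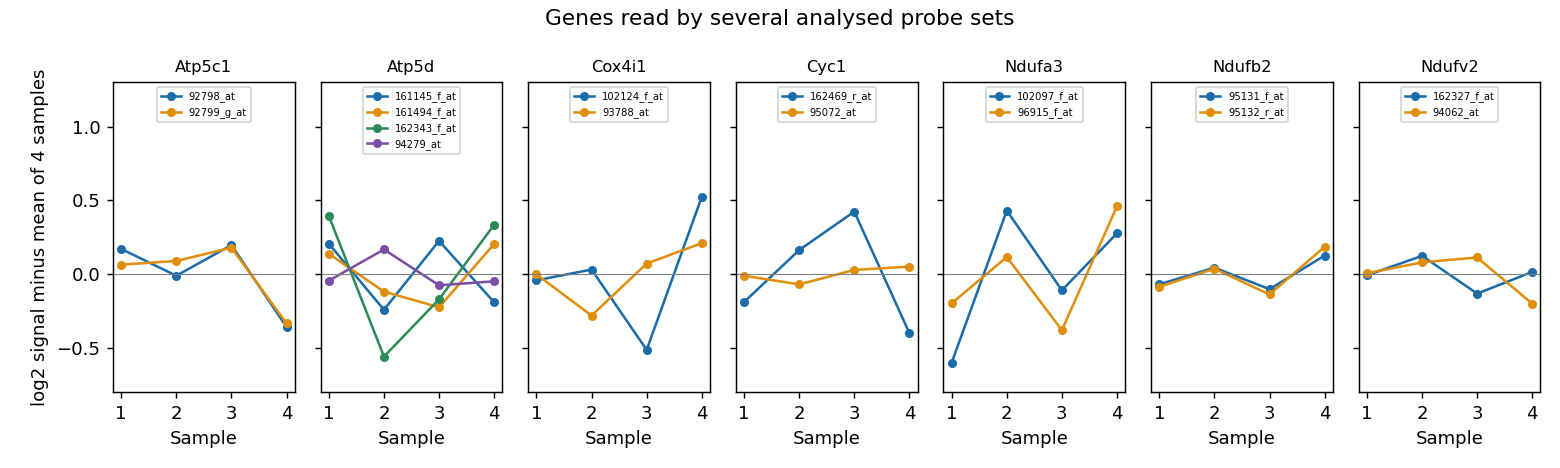
Log2 signal minus the mean of the 4 samples (vertical axis) in samples 1 to 4 (horizontal axis) for the 7 genes with at least 2 analysed probe sets. Each line is 1 probe set. The lines of Atp5c1 and Ndufb2 lie close together, while those of Atp5d and Cyc1 diverge.

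The subunits counted here as core were those of the core of complex I, of the electron path of complexes II and III and of the head and ring of complex V. They were Ndufv1, Ndufv2, Ndufs1, Ndufs3, Sdha to Sdhd, Cyc1, Atp5a1, Atp5c1, Atp5d, Atp5e, Atp5g1 and Atp5g2, with 21 analysed probe sets. Their median range was 0.36 log2 units, and none reached 2-fold. The 49 probe sets of accessory subunits had a median range of 0.40, and 4 reached 2-fold (15.2% of all). In sample 4, 11 of the 21 core probe sets were at their lowest, and 13 of the 49 accessory ones (30.7% of all). The 11 include the 4 complex II subunits described above and both probe sets of Atp5c1. With median scaling 2 of the 4 complex II subunits were lowest in sample 4, and the core and accessory counts are not given for the alternatives. The median deviations in sample 4 were -0.14 for the core and 0.04 for the accessory probe sets. No test of this difference was made.

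Ndufa1, Ndufb11 and Cox7b are X-linked. The signal of Xist, the RNA behind X inactivation, was 22.2, 307, 659 and 42.0 units across samples 1 to 4. The Y-linked Eif2s3y was at 232 and 190.5 units in samples 1 and 4 and below the floor in samples 2 and 3. Female cells make Xist and male cells Eif2s3y, so the samples held RNA of both sexes and did not all come from 1 animal. Ndufb11 gave 1018, 932, 989.8 and 1198 units and, like Cox7b, was highest in sample 4. The order of neither followed that of Xist. Both probe sets of Ndufa1 were too weak for analysis, the stronger at 43.9 to 94.0 units.

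Genes that work with these complexes were also examined. Of 16 electron carriers and substrate shuttles on the array, 13 were analysed, and 1 had a range of at least 2-fold (15.2% of all). This was Gpd2, the mitochondrial glycerol phosphate dehydrogenase, with 402, 686, 1057 and 804 units and an adjusted variance p of 0.737 (limma). Cytochrome c (Cycs) gave 262, 263, 241 and 276 units, and the ATP/ADP carrier Slc25a4 gave 4912, 4871, 5109 and 5159 units, a span of 1.06-fold. Atpif1, which inhibits ATP synthase when it runs backwards, gave 1799, 2182, 2261 and 1656 units, higher in samples 2 and 3. Among other groups, 0 of 11 analysed assembly factors, 0 of 5 ubiquinone synthesis genes, 0 of 6 regulators of mitochondrial genes and 0 of 15 import genes had a 2-fold range. The number past the variance test after adjustment was 0 in each group (0% of all). An unadjusted p under 0.05 was found for 1 electron carrier (Gpd2) and 1 import gene (5.62% of all). The import gene was Hspd1, a chaperone that folds imported proteins, with 1252, 2074, 2306 and 2143 units, lowest in sample 1. Of the 13 regulators on the array, 7 were too weak for analysis, among them Tfam, which packages mitochondrial DNA (12.6, 12.4, 47.4 and 21.8 units), and the coactivator Ppargc1a (30.9, 38.9, 52.5 and 104 units).

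Nuclear genes of this pathway are known as targets of NRF-1 and YY1, and their promoters were therefore examined for the letters of these motifs, a feature that the choice of genes did not use. Windows from 250 bases before to 50 after the start were found for 58 of 72 genes in RefSeq (GRCm38.p6), 63 windows in all. The NRF-1 core letters GCATGCGC, or their reverse complement, occurred in 10 of 63 windows (15.9%), against 2.71% of all 32851 windows and 3.52% of the 21263 windows of protein-coding genes. In 5 of the 63 (7.94%, against 0.98% and 1.35%) matches on the opposite strands overlapped and were joined into 1 longer site that reads the same on both strands. The YY1 core letters AAGATGGCG were found on either strand in 5 windows (7.94%, against 1.4% of all and 1.83% of coding ones). The ETS letters CCGGAAGT occurred on either strand in 4 (6.35%, against 3.89% and 5.15%). The joined NRF-1 sites and then the YY1 matches are shown so that the sites and their neighbouring bases can be compared, 5′ to 3′ in the direction of the gene, with the matched letters in capitals.
Atp5g2, chr15:102671070-102671099, minus strand: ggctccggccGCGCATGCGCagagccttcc
Atp5k, chr5:108434430-108434459, minus strand: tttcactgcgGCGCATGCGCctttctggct
Cox6a1, chr5:115349101-115349130, minus strand: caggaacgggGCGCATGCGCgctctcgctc
Ndufaf4, chr4:24897960-24897989, plus strand: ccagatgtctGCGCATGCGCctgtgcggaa
Uqcrc1, chr9:108936668-108936697, plus strand: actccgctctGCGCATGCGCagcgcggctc
Atp5j, chr16:84835045-84835074, minus strand: aagtgtaggaAAGATGGCGgagtcttagct
Atp5j2, chr5:145191499-145191528, minus strand: ccaggacttcAAGATGGCGtcactcggtga
Ndufa9, chr6:126849096-126849125, minus strand: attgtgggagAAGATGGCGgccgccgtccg
Ndufc1, chr3:51408914-51408943, minus strand: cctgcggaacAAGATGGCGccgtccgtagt
Ndufs4, chr13:114388045-114388069, minus strand: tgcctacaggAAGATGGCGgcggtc
The joined NRF-1 sites of Atp5g2, Atp5k, Cox6a1 and Ndufaf4 began 42, 50, 162 and 113 bases before the annotated start, and that of Uqcrc1 began 30 bases after it. The YY1 match of Atp5j began 88 bases before the start, and those of Atp5j2, Ndufa9, Ndufc1 and Ndufs4 began 23, 29, 22 and 35 bases after it. The genes with a joined NRF-1 site had no common order of samples, since the highest sample was 4 for Atp5g2, 3 for Atp5k, Ndufaf4 and Uqcrc1, and 2 for Cox6a1. Of the genes with a YY1 match, Atp5j was highest in sample 3, Ndufa9 in sample 4 and Ndufc1 in sample 2, and the others were too weak for analysis. A match describes letters and is not shown to be a bound site.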

How the data were processed

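The deposited values are array intensities on a linear scale, from a table of the whole series with 12488 probe sets and 4 samples. How the authors computed these intensities from the scans is not stated by the labels. After removal of 66 control probe sets, quantile normalization was done in limma 3.58.1 (R 4.3.3). Values below the 25th percentile (27.7 units) were set to it before log2. Probe sets with a mean normalized signal above the median were analysed (6210 of 12422). Variance was tested against its robust intensity trend by a one-sided F test (degrees of freedom 3 residual, 5.06 prior) with Benjamini-Hochberg adjustment at 0.05, and the script was tested on simulated data. Deviations compare the log2 signal of a sample with the mean of the other 3. All 100 member probe sets matched RefSeq through the Entrez identifier. Members and lists were chosen with earlier results of these data known. Values in every sample were given for core subunits, isoform pairs, the widest and narrowest member of each complex, members with a 2-fold range or an unadjusted p under 0.05, and genes whose probe sets disagreed; others were added after their values were seen. The number of arrays limits the precision. Alternatives covered scaling, floor, offset, filter, prior, probe set choice and leaving out each sample.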

Additional observations from a re-analysis of the deposited data

Results flagged for a closer look

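Of the 81 member probe sets with all 4 signals above the floor, 3 had 1 sample whose gap to the nearest other was most of the whole range, a pattern that chance gives in about 5% of groups. Ndufa8 was low in sample 4, at 678 units. Cox6b2 was low in sample 2 on 1 of its probe sets, at 66.2 units. Atp5d was high in sample 2 on 1 of its probe sets, at 126 units. The medians of the 5 complexes and of all members showed no such gap.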

How the results depend on the processing

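The number of members past the variance test after adjustment was 0 under every alternative tried, and their median range kept within 0.25 to 0.42 log2 units. The count of 0 carries little, because no probe set on the array passed under any alternative. The smallest adjusted p over all probe sets was 0.115 (limma), without sample 3. The number with an unadjusted p under 0.05 ranged from 3 to 5 when 1 sample was left out. The number with a 2-fold range was 10 of 100 with no signal filter, 1 with an offset of 16 units and no floor, and 1 to 4 when 1 sample was left out. The shares of all probe sets under these alternatives are not given here, so neither number is set against a background. The median log2 deviations of a sample were small and some changed sign. Median scaling moved the median of all analysed probe sets to -0.09 in sample 2 and 0.11 in sample 4. With it, sample 2 gave -0.086 for all members, -0.102 for complex I, -0.031 for complex III and -0.09 for complex V, and sample 4 gave 0.101, 0.111, 0.078 and -0.01. With the deposited values, the members gave 0.009 in sample 2. With no signal filter, the members gave 0.008 in sample 2, complex I -0.019 in sample 1, complex IV 0 in sample 4, and complex V -0.042 in sample 3 and 0.053 in sample 4. With 1 probe set per gene, complex III gave 0.004 in sample 2. With 1 sample left out, the members ranged from -0.055 to -0.001 in sample 1 and from -0.037 to 0.021 in sample 4. Sample 2 then ranged from -0.081 to 0.123 for complex III, from -0.068 to 0.104 for complex IV and from -0.035 to 0.057 for complex V, and complex V ranged from -0.008 to 0.107 in sample 3. Complex II in sample 4 lay between -0.363 and -0.219 under all alternatives tried. The cause of these shifts was not tested. No paired analysis was possible because all samples form 1 group.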
